A study of Mus musculus with 9 samples.

Results

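The genes described here are the 10 that encode perilipins and other proteins that act at the lipid droplet, chosen by symbol: Plin1, Plin2, Plin3, Plin4, Plin5, Hilpda, Cidea, Cideb, Cidec and Bscl2. Each symbol matched a single Ensembl gene ID, and all 10 IDs were among the 53700 in the count table. RNA was sequenced from 9 libraries of C2C12, a mouse myoblast line, in 3 groups of 3, and every group had first been starved for 12 h in OPTI-MEM. Control wells were collected at the end of that starvation and received neither valine nor palmitic acid. Valine wells were kept for a further 36 h in 0.45 mM valine, a branched-chain amino acid. Val+PA wells had 24 h of 0.45 mM valine and 12 h of 75 µM palmitic acid, a saturated fatty acid. The wells of a group came from a single plate, so the p-values measure the spread between wells of that plate. Time in culture and plate cannot be told apart from valine, because the Control plate was harvested before the other plates.

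Cells store surplus fatty acids as triglyceride in lipid droplets, which bud from the endoplasmic reticulum with the help of seipin and are coated by perilipins. PLIN2 and PLIN3 are made in most tissues, PLIN1 and PLIN4 are best known from adipocytes, and PLIN5 from oxidative muscle and heart, where it sits between droplets and mitochondria. HILPDA restrains the lipase ATGL, and the CIDE proteins promote growth and fusion of droplets. In muscle, fatty acids acting through PPAR receptors are known to induce several of these genes, and hypoxia induces Hilpda.

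The promoters of 3 genes are shown because in these genes every Valine library lay below every Control and Val+PA library, as described below. How many of all genes tested share this joint pattern was not counted. In either direction, 59.0% of them did not overlap between Valine and Control and 24.6% between Val+PA and Valine. Each is 300 bases of RefSeq sequence on build GRCm38.p6, from 250 bases before to 50 bases after an annotated start, read along the gene's strand. RefSeq windows were found for 9 of the 10 genes. Capitals mark AGGTCA, the half-site bound by PPAR and related nuclear receptors, and ACGTG, a form of the core bound by hypoxia-inducible factors, on either strand. The form GCGTG was neither marked nor counted. The windows are those of Plin2 (chr4:86670010-86670309, minus strand), Plin4 (chr17:56109733-56110032, minus strand) and the downstream start of Hilpda (chr6:29272376-29272675, plus strand).
Plin2: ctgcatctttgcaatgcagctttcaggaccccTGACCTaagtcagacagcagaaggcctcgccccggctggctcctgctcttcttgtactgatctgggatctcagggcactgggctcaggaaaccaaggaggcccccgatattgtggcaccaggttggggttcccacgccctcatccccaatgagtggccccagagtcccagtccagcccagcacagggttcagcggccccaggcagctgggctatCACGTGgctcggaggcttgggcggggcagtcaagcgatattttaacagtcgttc
Plin4: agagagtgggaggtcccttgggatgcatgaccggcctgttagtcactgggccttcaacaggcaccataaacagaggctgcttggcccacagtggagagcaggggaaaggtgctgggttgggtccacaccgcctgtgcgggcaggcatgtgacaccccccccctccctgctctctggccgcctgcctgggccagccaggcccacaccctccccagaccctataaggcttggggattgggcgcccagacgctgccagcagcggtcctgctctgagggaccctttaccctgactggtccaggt
Hilpda: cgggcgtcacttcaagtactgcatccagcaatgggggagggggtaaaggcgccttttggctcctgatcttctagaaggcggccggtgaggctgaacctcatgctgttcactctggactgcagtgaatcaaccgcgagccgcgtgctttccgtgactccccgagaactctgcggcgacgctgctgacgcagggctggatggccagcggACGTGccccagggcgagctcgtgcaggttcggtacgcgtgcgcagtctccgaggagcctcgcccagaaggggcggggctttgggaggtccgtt

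The Plin2 window held AGGTCA on its opposite strand, with the match beginning 218 bases before the start. It also held CACGTG beside the start, a palindrome that reads as ACGTG on both strands. The downstream Hilpda window held ACGTG with its first base 43 bases before the start. The window of the upstream Hilpda start, which is not printed, held neither AGGTCA nor ACGTG, though GCGTG is in its letters. AGGTCA and ACGTG were not in the letters of the Plin4 window. Among windows that are not printed, AGGTCA was also in those of Plin5 and in a window of Bscl2. Its presence was thus not particular to genes with the pattern described below. Over all 32851 windows of that length, 16.3% held AGGTCA and 19.6% held ACGTG on either strand. Another 5 motifs were searched on both strands. The E-box CAGCTG, bound by MyoD, was in 16.3% of all windows and in that of Plin2. The CCAAT box (CCAAT) was in 37.4%, Plin2 and Plin4 among them. The GC box (GGGCGG) was in 35.7%, with Plin2 and the downstream Hilpda start among them. The TATA box (TATAAA), in 13.6%, and the heat shock type motif (GAANNTTC), in 7.86%, were not in the letters of these 3 windows. These matches describe letters and not binding.

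Levels were compared between genes on the deposited normalized signal, in which counts are divided by a quantity close to exonic length. Plin2 was the most abundant of the genes in every library, at a signal of 304 to 442. Plin3 followed at 47.6 to 74.5, Hilpda at 26.5 to 38.3 and Plin4 at 3.90 to 13.9, and in each library the 4 genes kept this order. Bscl2 ran from 0.301 to 0.922, Cideb from 0.164 to 0.816 and Plin5 from 0.153 to 0.607, and these ranges overlapped. Among the perilipins, Plin2 made up 81.9% to 87.0% of the summed signal in each library and Plin3 made up 10.9% to 16.7%. Plin1 had no count in Control, 8, 1 and 1 counts in Valine and 4, 4 and 0 in Val+PA. Cidec had 1 count in all 9 libraries together, in Valine 2, and Cidea had none, which in 1 library allows a level of up to 0.0814 to 0.121 CPM (3 counts, counting error only). The adipocyte coat gene Plin1 and the fat-tissue CIDE genes Cidea and Cidec were therefore at or near the detection limit.

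**Figure D1:**
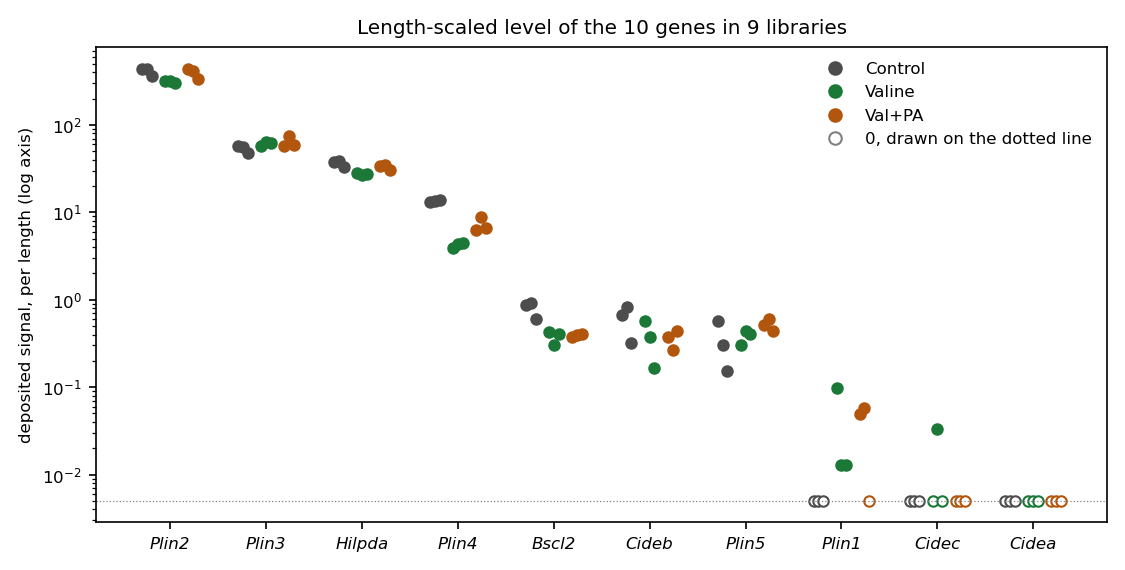
Deposited length-scaled signal (log axis) of the 10 genes, ordered by mean, with 1 point per library coloured by group and values of 0 drawn open on the dotted line. Plin2, Plin3, Hilpda and Plin4 sit above a signal of 3 in every library and Plin1, Cidec and Cidea at or near 0.

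Changes between groups were tested with edgeR on counts, and 7 of the 10 genes had enough counts to be tested. Plin1, Cidea and Cidec did not. Library totals ran from 26750226 to 35976589 counts, and levels below are CPM on TMM-scaled library sizes. Control 3 and Val+PA 2 stood apart from their groups on the second principal component, at -30 and -58.8 against -10.7 to 23 for the other libraries, and results are also given without both where they matter. Myoblast markers were present, with Des, the muscle intermediate filament, at means of 1230 to 2400 CPM in the groups and Myod1 at 8.29 to 11.1 CPM. Pax7 was the lowest of that list, at means of 1.28 to 1.54 CPM. Among 13 adipocyte markers the defining Adipoq, Lep, Retn and Adrb3 had no count in any library, and the summed list ran from 33.7 to 47.3 CPM in Control, 99.1 to 107 CPM in Valine and 79.3 to 107 CPM in Val+PA, mostly from Lpl, which muscle makes too. Of the 5 adipocyte markers tested, 3 rose in Valine and 2 in Val+PA against Control.

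After valine, 4 of the 7 tested genes fell against Control and none rose (quasi-likelihood test in edgeR, adjusted over all genes by Benjamini-Hochberg, at a threshold of 0.05). These were Plin4, Bscl2, Hilpda and Plin2. Plin4 changed most, to 12.8 from 41.8 CPM. For comparison, 21.1% of all 18415 genes tested fell and 20.8% rose. For the same 4 genes no Valine value reached into the Control range, against 59.0% of all genes tested. The median log2 fold change was -0.45 over the 7 genes and -0.00493 over all genes. The genes were chosen with earlier results of these data known, so these shares and medians describe the set and do not test it. Without Control 3 and Val+PA 2 the same 4 genes fell, with log2 fold changes of -0.50 for Plin2 (SE 0.08), -1.65 for Plin4 (SE 0.09), -0.49 for Hilpda (SE 0.09) and -1.25 for Bscl2 (SE 0.23).

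Plin2 encodes the general droplet coat protein, which is stabilised when droplets fill. It lies on GRCm38 chromosome 4, 86648386 to 86670060, minus strand (ENSMUSG00000028494). Its levels were 758, 735 and 648 CPM in Control, 531, 536 and 513 CPM in Valine and 733, 697 and 566 CPM in Val+PA. All Valine libraries were below all others, and Control and Val+PA overlapped. Between Valine and Control, Plin2 fell 1.35-fold, a log2 fold change of -0.44 (SE 0.11, edgeR adjusted p = 0.00793). Val+PA measured 665 ± 88 CPM (SD, n = 3) beside 714 ± 58 CPM in Control, a log2 fold change of -0.10 (SE 0.11) that did not pass (edgeR adjusted p = 0.505).

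Plin4 encodes a perilipin with a long amphipathic repeat, which coats small nascent droplets. It lies on chromosome 17, 56100591 to 56109803, minus strand (ENSMUSG00000002831), 1797 bases from Plin5, and shares 17 exonic bases with Hdgfl2 on the opposite strand. Its levels were 40.3, 40.4 and 44.7 CPM in Control, 11.8, 13.1 and 13.5 CPM in Valine and 19.1, 26.6 and 20.03 CPM in Val+PA. The 3 groups did not overlap, with Control highest and Valine lowest. Plin4 fell 3.27-fold in Valine (log2 -1.71, SE 0.14, edgeR adjusted p = 2.57e-06) and 1.91-fold in Val+PA against Control (log2 -0.93, SE 0.14, edgeR adjusted p = 0.00022). Its share of the summed perilipin signal was 2.53% to 3.27% in Control, 1.02% to 1.19% in Valine and 1.25% to 1.76% in Val+PA.

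Plin3 and Plin5 made up the rest of the measured perilipins. Plin3, a coat protein also found in the cytosol, measured 108, 99.7 and 91.1 CPM in Control, 104, 114 and 113 CPM in Valine and 106, 135 and 105 CPM in Val+PA. The groups overlapped, and no comparison passed, with log2 fold changes of 0.15 (SE 0.12) for Valine and 0.22 (SE 0.12) for Val+PA against Control. Plin5, which lies beside Plin4 on chromosome 17 (56111601 to 56117596, minus strand), had 4 to 19 counts per library. Its means were 0.347 ± 0.21 CPM in Control, 0.382 ± 0.073 CPM in Valine and 0.519 ± 0.088 CPM in Val+PA (SD, n = 3). At this depth no difference in Plin5 was detectable, and its log2 fold change for Valine against Control was 0.10 with an SE of 0.45. Plin4 and its neighbour were thus measured at very different precision.

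Hilpda encodes a small inhibitor of droplet lipolysis. It lies on chromosome 6, 29272488 to 29275446, plus strand (ENSMUSG00000043421). Its levels were 20.3, 20.05 and 18.4 CPM in Control, 14.6, 13.9 and 14.5 CPM in Valine and 17.9, 18.5 and 16.2 CPM in Val+PA. Every Valine library was below every library of the other groups, while Control and Val+PA overlapped. Hilpda fell 1.37-fold in Valine (log2 -0.45, SE 0.11, edgeR adjusted p = 0.00611). Against Control, Val+PA stood at -0.16 (SE 0.11) and did not pass (edgeR adjusted p = 0.276).

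Bscl2 encodes seipin, the endoplasmic reticulum protein at which droplets form. It lies on chromosome 19, 8837467 to 8848683, plus strand (ENSMUSG00000071657), and 10.8% of its exonic bases are shared with Gng3 on the opposite strand or with a same-strand protein-coding gene, so its counts are uncertain there. It was counted 78, 85 and 45 times in Control, 44, 29 and 39 times in Valine and 39, 35 and 37 times in Val+PA. In CPM the Control libraries stood at 2.501, 2.583 and 1.812, the Valine libraries at 1.195, 0.8432 and 1.143, and those of Val+PA at 1.059, 1.121 and 1.144. Control was above both other groups in every library, and Valine and Val+PA overlapped. Bscl2 fell 2.17-fold in Valine (log2 fold change -1.12, SE 0.23, edgeR adjusted p = 0.002) and 2.08-fold in Val+PA against Control (-1.06, SE 0.23, edgeR adjusted p = 0.003). Its fall in Valine was -0.38 on the log2 scale of the deposited signal plus 1, since a pseudocount of 1 exceeds its level. Cideb, the liver-type CIDE gene, had 4 to 19 counts per library, and 76.3% of its exonic bases lie under Nop9 on the opposite strand. Nop9 had 2384 to 3050 counts, so the few Cideb counts cannot be assigned with certainty. Cideb measured 0.433 ± 0.17, 0.262 ± 0.15 and 0.258 ± 0.06 CPM in Control, Valine and Val+PA (SD, n = 3) and passed in no comparison.

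**Figure D2:**
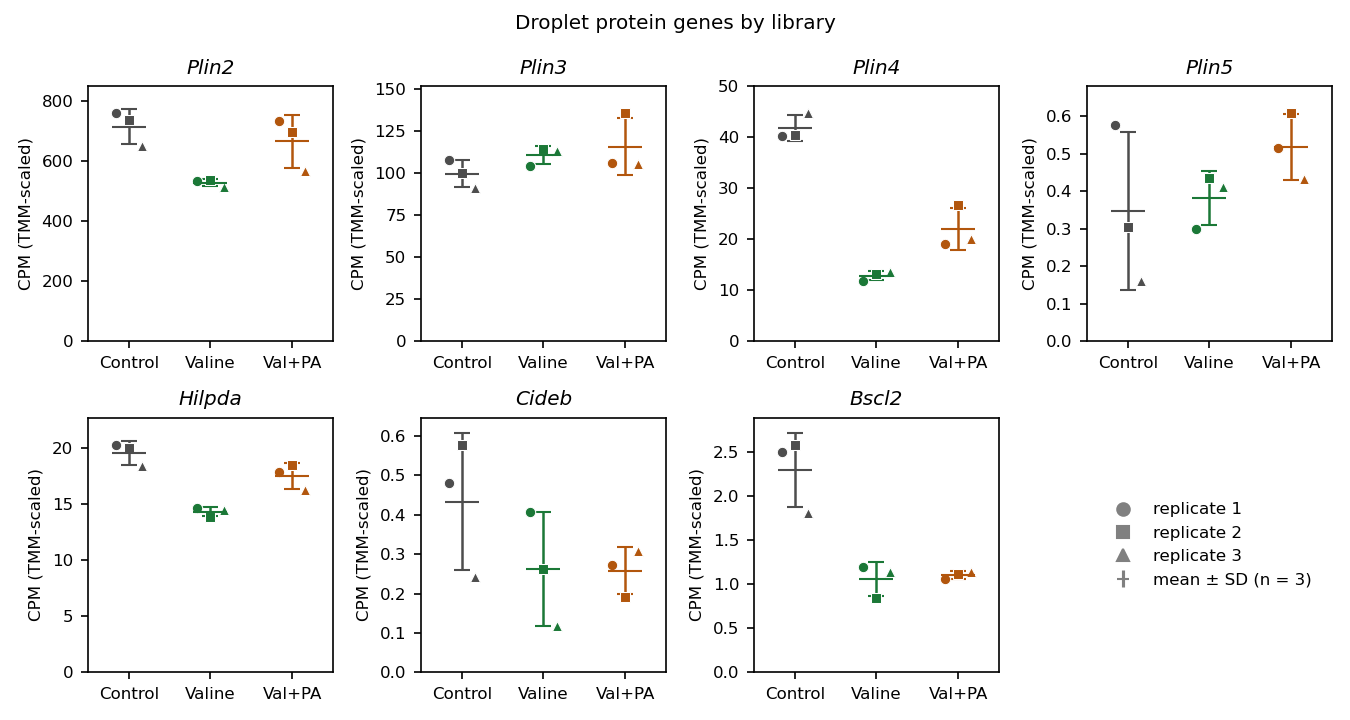
CPM of the 7 tested genes in each library, with a marker shape per replicate and the mean ± SD (n = 3) of each group, on axes that start at 0. Valine lies below Control without overlap for Plin2, Plin4, Hilpda and Bscl2, and Val+PA lies above Valine without overlap for Plin2, Plin4 and Hilpda.

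Val+PA was then set beside Valine. These groups differ in palmitic acid, in the stated time in valine (24 h against 36 h) and in plate, which cannot be told apart. No gene passed in that comparison by the quasi-likelihood test in edgeR (0% of 18415 genes), while 2428 genes, or 13.2%, had an unadjusted p below 0.05. By the same unadjusted criterion, Plin4, Plin2 and Hilpda were among them, 3 of the 7 genes tested, all with higher values in Val+PA. DESeq2 called 212 genes and limma-voom none. Values did not overlap between the 2 groups for the same 3 genes, against 24.6% of all genes tested. Plin4 had a mean of 21.9 ± 4.1 CPM in Val+PA and of 12.8 ± 0.9 CPM in Valine (SD, n = 3), which is 0.78 on the log2 scale (SE 0.14), and ranked 13 of all genes by p (edgeR adjusted p = 0.168). Plin2 stood at 0.34 (SE 0.11, edgeR adjusted p = 0.321) and Hilpda at 0.29 (SE 0.11, edgeR adjusted p = 0.343).

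The call on Plin4 in Val+PA against Valine depended on the fit. DESeq2 called it at a log2 fold change of 0.77 (adjusted p = 0.000578), as did edgeR with no filter on low counts (0.78, adjusted p = 0.000137). Without Control 3 and Val+PA 2 together edgeR called it at 0.61 (SE 0.09, adjusted p = 0.00244). The other 17 alternatives did not call it, and its log2 fold change ran from 0.61 to 0.87 over all 20. Plin2 and Hilpda were called under none of the 20, with edgeR adjusted p = 0.0518 and 0.162 without those 2 libraries. For Bscl2 the log2 fold change was 0.06 (SE 0.24), for Plin3 0.06 (SE 0.12) and for Plin5 0.44 (SE 0.42), and none of these passed.

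Against Control, 2 of the 7 genes, Plin4 and Bscl2, fell in Val+PA and none rose. Over all genes tested 18.8% fell and 20.4% rose. Values did not overlap between the 2 groups for Plin4 and Bscl2, against 45.5% of all genes. The comparisons of Valine and of Val+PA with Control share the Control libraries, and the genes' own values stand side by side. In mean CPM, Val+PA exceeded Valine by 138 CPM for Plin2, where Control exceeded Valine by 187 CPM, or 74.0% of that difference. The same share was 61.1% for Hilpda, 31.5% for Plin4 and 3.8% for Bscl2. For Plin3, Plin5 and Cideb, which did not pass in Valine, it was -45.9%, -398% and -2.68%. The Valine libraries enter both differences, so a low value in Valine raises both. These shares are descriptions of group means, with no test of their own, and for Bscl2 the log2 fold change of Val+PA against Valine turned from 0.06 to -0.08 without Valine 2.

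**Figure D3:**
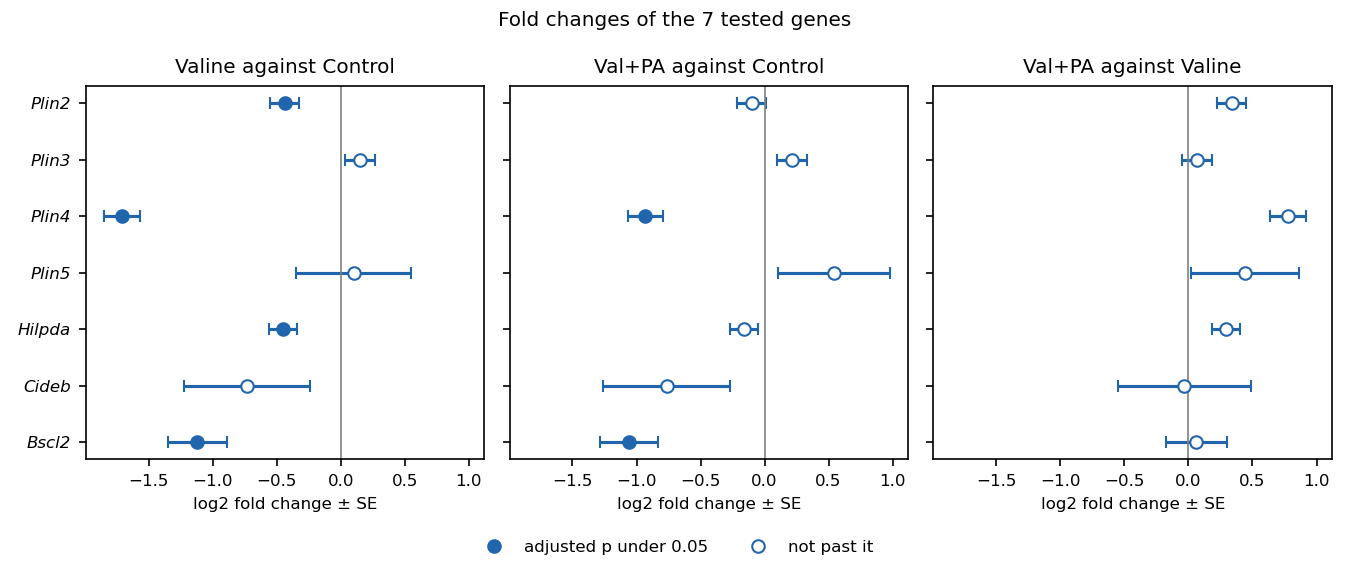
Log2 fold change ± SE of the 7 tested genes in the 3 comparisons (edgeR, 3 libraries a group), filled where the adjusted p is below 0.05. Plin2, Plin4, Hilpda and Bscl2 are filled for Valine against Control, Plin4 and Bscl2 for Val+PA against Control, and none for Val+PA against Valine.

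Other genes of droplet turnover were followed as lists. For every list below, the shares over all genes tested are the comparison. These were 20.8% higher and 21.1% lower in Valine, and 20.4% higher and 18.8% lower in Val+PA, each against Control. Of 19 tested genes of droplet biogenesis and surface, 7 rose and 5 fell in Valine against Control, with a median log2 fold change of 0.0579. Acsl3, an acyl-CoA synthetase of nascent droplets, rose from 188 ± 32 to 341 ± 19 CPM (SD, n = 3), or by 0.86 on the log2 scale (SE 0.17). Pcyt1a, an enzyme in the synthesis of phosphatidylcholine, a lipid of the droplet surface, fell from 41.9 ± 3.5 CPM (SD, n = 3) by a log2 change of -0.63 (SE 0.12). In Val+PA against Control 6 of the 19 rose and 6 fell, and Tmem41b, a scramblase of the endoplasmic reticulum, fell most (log2 -0.78, SE 0.19). In Val+PA against Valine none passed, and the smallest p was that of Ubxn8, at -0.38 (SE 0.14).

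Of 13 tested genes of triglyceride and sterol ester synthesis, 6 rose and 3 fell in Valine, and 6 rose and 2 fell in Val+PA, both against Control. Their median log2 changes were 0.0973 and 0.271. Mogat2, a monoacylglycerol acyltransferase, rose from 1.70 ± 0.35 to 5.87 ± 0.49 CPM in Valine (SD, n = 3). Lpin3, a phosphatidate phosphatase, fell from 57.9 ± 2.1 to 34.3 ± 1.8 CPM. With palmitic acid and against Control, Mogat2 stood at 1.58 on the log2 scale (SE 0.18) and Lpin3 at -0.73 (SE 0.10). Of 6 tested lipolysis genes only G0s2, another inhibitor of ATGL, passed in Valine, rising from 6.42 ± 2.3 to 18.4 ± 0.43 CPM (SD, n = 3), or by 1.51 on the log2 scale (SE 0.22). G0s2 and Hilpda, which act on the same lipase, thus changed in opposite directions in Valine. Against the same Control, 2 of the 6 rose in Val+PA, with G0s2 at 22.4 ± 4.2 CPM. None of the synthesis or lipolysis genes passed in Val+PA against Valine, with log2 fold changes of 0.28 for Agpat3 (SE 0.11) and 0.28 for G0s2 (SE 0.21), the genes of smallest p.

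Of 19 tested PPAR-responsive genes outside the 10, 8 rose and 2 fell in Valine, and 8 rose and 3 fell in Val+PA, against Control. Their median log2 changes were 0.315 and 0.366. Cd36, a fatty acid transporter, rose by 2.08 on the log2 scale (SE 0.41) in Valine, but at a low level. It went from 0.288 ± 0.17 to 1.21 ± 0.25 CPM (SD, n = 3), with 3 to 51 counts per library. Pdk4, a brake on glucose oxidation, fell from 35.9 ± 2.7 to 17.8 ± 2.3 CPM (SD, n = 3). Acot2, a mitochondrial thioesterase, rose most in Val+PA, to 106 ± 15 from 24.3 ± 2.3 CPM in Control (SD, n = 3), while Pdk4 fell there to 24.7 ± 2.6 CPM. In Val+PA against Valine, Angptl4, a secreted lipase inhibitor, had the smallest p of the list. It measured 197 ± 32 against 110 ± 4 CPM (SD, n = 3), 0.85 on the log2 scale (SE 0.14, edgeR adjusted p = 0.168). There 7 of the 19 had an unadjusted p below 0.05, against 13.2% of all genes tested. By that criterion the counts were 3 of 19 for droplet biogenesis and surface, 1 of 13 for synthesis and 0 of 6 for lipolysis. They were 3 of 17 for the hypoxia-inducible genes and 3 of 11 for the regulators below. DESeq2 called Angptl4 (adjusted p = 0.00028), as did edgeR with no filter and without Control 3 and Val+PA 2 together.

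Of 17 tested hypoxia-inducible genes other than Hilpda, 8 rose and 3 fell in Valine, and 8 rose and 2 fell in Val+PA, against Control. Car9, a carbonic anhydrase, rose from 2.77 ± 0.72 to 12.0 ± 1.4 CPM in Valine (SD, n = 3), and to 11.9 ± 0.81 CPM in Val+PA. Egln3, a prolyl hydroxylase, fell from 63.5 ± 2.5 to 32.1 ± 0.57 CPM in Valine and to 32.6 ± 3.3 CPM in Val+PA (SD, n = 3). Hilpda fell in Valine while the median of this list was 0.225 on the log2 scale. Ankrd37 had the smallest p of the list in Val+PA against Valine, at 0.74 (SE 0.19), and did not pass. Without Control 3 and Val+PA 2 together it passed, at 0.78 (SE 0.20, edgeR adjusted p = 0.0408).

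Among 11 tested regulators of droplet genes, 2 rose and 1 fell in Valine. Ppargc1a, a coactivator of PPAR receptors, rose from 1.45 ± 0.28 to 7.58 ± 0.98 CPM, and Hif1a, the oxygen-sensitive subunit of hypoxia-inducible factor, from 309 ± 43 to 479 ± 5.9 CPM (SD, n = 3). Tfeb, a lysosomal regulator, fell (log2 -0.53, SE 0.14). Ppargc1a also rose in Val+PA, by 2.21 (SE 0.21), and the fall of Tfeb (-0.41, SE 0.14, edgeR adjusted p = 0.0311) was lost under 11 of 20 alternatives, with adjusted p up to 0.146. Pparg measured 14.0 ± 0.85, 12.8 ± 0.8 and 15.2 ± 1 CPM in Control, Valine and Val+PA, and Ppard 20.4 ± 2.1, 16.7 ± 1.3 and 21.5 ± 5.5 CPM (SD, n = 3), and neither passed in any comparison. Without Control 3 and Val+PA 2 together, Ppard passed in Valine against Control (log2 -0.37, SE 0.09, edgeR adjusted p = 0.00294), and without Val+PA 2 alone it passed at -0.29 (SE 0.10, edgeR adjusted p = 0.0416). Hif1a in Val+PA against Control stood at 0.41 (SE 0.16, edgeR adjusted p = 0.0664), and passed at 0.50 (edgeR adjusted p = 4.81e-05) without those 2 libraries, at 0.59 (adjusted p = 0.00167) without Val+PA 2 alone and at 0.42 (adjusted p = 0.00349) with no filter. Ppara had 0 to 17 counts per library and was not tested. No regulator passed between Val+PA and Valine, where Cebpb had the smallest p at 74.4 ± 17 and 42.4 ± 3.5 CPM (SD, n = 3). Cebpb was called there by DESeq2, by edgeR with no filter and without Control 3 and Val+PA 2 together.

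Markers of other states moved between the same groups. All 10 myotube markers rose in Valine and in Val+PA against Control, with a summed level of 19.9 to 21.3 CPM in Control, 113 to 120 CPM in Valine and 84.0 to 117 CPM in Val+PA. Fibroblast markers rose in 6 of 7 tested cases in both. Their sum went from 363 to 488 CPM in Control to 1630 to 1730 CPM in Valine and 1540 to 1780 CPM in Val+PA. Most of that sum was Ly6a, at means of 386, 1400 and 1480 CPM in Control, Valine and Val+PA. Of 9 myoblast markers 5 rose and 1 fell in Valine. The sums, mostly from Des and Itga7, were 2190 to 2490 CPM in Control, 3550 to 3750 CPM in Valine and 3390 to 5370 CPM in Val+PA. All 3 tested endothelial markers rose in Valine and 2 of them in Val+PA, against Control. The list had sums of 1.83 to 2.26, 6.44 to 7.86 and 6.35 to 10.8 CPM in Control, Valine and Val+PA. Pecam1, Cdh5 and Cldn5, the others listed, had 0 to 9, 0 to 6 and 0 to 3 counts per library and were not tested. Of 3 tested immune markers 1 rose and 1 fell, with sums of 2.34 to 3.66, 5.71 to 6.89 and 5.99 to 7.68 CPM, and C1qa had no count. The part of these shifts in the falls of Plin2, Plin4, Hilpda and Bscl2 was not tested, and in bulk RNA fewer cells of a type and less RNA per cell cannot be told apart.

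The genes whose patterns over the 9 libraries lay closest were found for Plin2, Plin3, Plin4 and Hilpda, the members with at least 5 CPM, among 10058 genes. Likeness was the root mean square distance between profiles of log2 CPM, each centred on its own mean. Hilpda was the nearest gene to Plin2, at a distance of 0.0695. Plin2 was followed by Snx30 (0.0888) and Hspb8 (0.0906), where the median gene lay at 0.324. Around Hilpda, Hspb8 lay at 0.0719, against a median of 0.308. Nearest to Plin4 were Aacs (0.0739), at means of 345, 112 and 173 CPM in Control, Valine and Val+PA, then Ier2 (0.0898) and Sgsm1 (0.132), against a median of 0.721. Plin3 lay nearest to St3gal3 (0.0472), Vps16 (0.0496) and Pacs2 (0.0543), against 0.301.

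**Figure D4:**
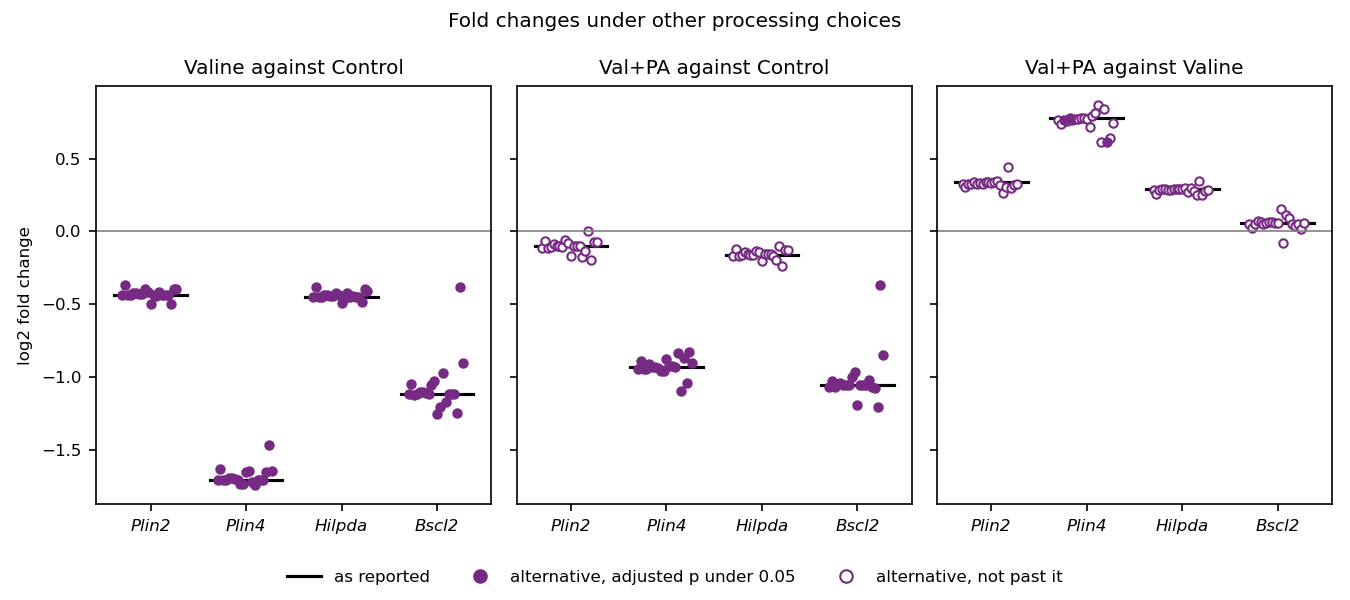
Log2 fold changes of Plin2, Plin4, Hilpda and Bscl2 under 20 alternatives (points, filled where the adjusted p is below 0.05) and as reported (black lines). All alternatives for Valine against Control are filled and below 0, and for Val+PA against Valine only Plin4 has filled points, under 3 of the 20.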

How the data were processed

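RNA was measured in 9 libraries, 3 each of Control, Valine and Val+PA. Per the submitters' processing notes the tools were HISAT2, featureCounts and DESeq2, on GRCm38, without versions. For strand handling and gene models, the settings were not given in the sources used here. Raw read counts per gene were deposited by the authors. The deposited normalized signal, checked on 9228 genes, equals the count times 1 factor per gene and 1 per library, made by the authors, and the gene factor followed the inverse of GENCODE M21 exonic length within 0.1 log2 for 99.3% of them. Val+PA columns were matched through their sample titles.

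Symbols and positions came from GENCODE M21, which names 52093 of the 53700 IDs. Genes kept by filterByExpr (18415) were scaled by TMM and fitted in edgeR 4.0.16 (R 4.3.3) by quasi-likelihood, with group means as the terms and all libraries in 1 fit. Tests were two-sided with Benjamini-Hochberg adjustment over all genes at 0.05. SE is the absolute log2 fold change over the square root of F, and may be too small at a few counts. DESeq2 1.42.0 and limma 3.58.1 served as alternatives. On simulated counts, 62 of 100 genes changed 2-fold were called for Valine against Control (18007 genes), 58 for Val+PA against Valine (17985) and 62 for Val+PA against Control (18006). In each simulation 100 genes were changed 2-fold and 100 genes 3-fold, and no library stood apart from its group. The real data differ in both respects, so these figures do not give the sensitivity reached there. The genes named are all 10 members and, per list and comparison, the called gene with the largest rise and the largest fall or else the gene of smallest p, with Ppara, Ppard, Pparg, Ppargc1a and Hif1a always, and the 3 nearest patterns, of which 1 is not reported here. The 10 members and 12 lists were chosen with earlier results of these data known. No 2 libraries of a group were alike within sampling noise (chi-square per degree of freedom of 3.99 or more). Nothing in the labels ties replicate numbers to a shared origin.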

Additional observations from a re-analysis of the deposited data

How the results depend on the processing

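In Valine against Control and in Val+PA against Control, the counts of 4 and 2 members lower and 0 higher were the same under all 20 alternatives. In Val+PA against Valine the count of members higher was 0 as reported and 1, Plin4, with DESeq2, with no filter and without Control 3 and Val+PA 2 together. The cause was not tested. Over all genes, that comparison gave 0 calls as reported and 212, 761 and 604 under these 3. Leaving out 1 library at a time gave 0 members higher and 0 lower there, 0 and 4 in Valine against Control, and 0 and 2 in Val+PA against Control. Over the 20 alternatives the log2 fold change for Valine against Control ran from -0.50 to -0.37 for Plin2, -1.75 to -1.47 for Plin4, -0.49 to -0.38 for Hilpda and -1.25 to -0.38 for Bscl2. Some comparisons that passed nowhere changed sign, such as Plin5 in Valine against Control (3 alternatives), Cideb in Val+PA against Valine (5) and Plin3 there (2, both without Val+PA 2). The stronger filter of at least 1 CPM in 3 libraries leaves out Plin5 and Cideb. With the replicate number as a block (replicate block), edgeR called 4, 0 and 2 members in the 3 comparisons, with Plin4 at an adjusted p of 1.17e-05 in Valine against Control. Same-numbered libraries correlated in their deviations from group means at -0.272 to 0.158, and libraries of different numbers at -0.326 to 0.282. No pairing by number was visible, but with 3 libraries a group a weak one could not be detected this way. Below about 20 counts per library (Plin5, Cideb) depth limits any statement.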
